A study of Mus musculus with 2 samples.

Results

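Areg, Ereg, Nrg1 and Hbegf encode amphiregulin, epiregulin, neuregulin 1 and heparin-binding EGF-like growth factor, and they were followed as 4 of the 31253 genes listed for leukocytes of mouse melanomas. They were taken by gene symbol and had been chosen by their UMI counts across cell classes and in both libraries. The differences between libraries and between cell classes given here are therefore descriptions and not tests. A UMI, or unique molecular identifier, marks 1 captured RNA molecule. Barcodes with at least 200 detected genes and under 10% mitochondrial UMIs were kept as cells, which left 5576 of 5902 barcodes in the shSdc1 library and 5225 of 5786 in the shRFP library.

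The shSdc1 library held live CD45+ cells sorted from 6 pooled tumours of B16 melanoma cells that carried a hairpin against Sdc1, and the shRFP library held the same sort from 6 pooled tumours of B16 cells with a hairpin against RFP. All hosts were wild-type mice that had first received irradiated GM-CSF-expressing B16 cells as a vaccine, 12 days before the tumour cells, and tumours were taken 16 days after the tumour cells. For the shSdc1 sample the genotype field reads Sdc1 knock out, but by the sample title and the growth protocol it was the tumour cells that carried a hairpin, and the hosts were not mutant. Each group was 1 library, so differences have no replicate check and all intervals below are 95% intervals for counting error only.

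Members of the EGF family are made as precursors in the cell membrane and are released by proteases such as ADAM17. Amphiregulin and HB-EGF bind the EGF receptor, epiregulin and HB-EGF bind EGFR and ErbB4, and neuregulin 1 binds ErbB3 and ErbB4. Amphiregulin is known as a tissue-repair product of regulatory T cells, group 2 innate lymphoid cells and myeloid cells. Several of these ligands bind heparan sulfate, the sugar chain carried by syndecan-1.

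Areg and Ereg lie in the same family cluster on chromosome 5 (mm10, GENCODE M21 positions), where Ereg spans 91074622 to 91093646 and Areg 91139599 to 91148432, both on the plus strand and 46.0 kb apart. Their neighbours Epgn and Btc, which encode epigen and betacellulin, were listed at 0 UMIs in both libraries. Nrg1 spans 31814551 to 32884029 on the minus strand of chromosome 8. The promoter of Areg is shown because Areg had the most UMIs of the members, with many in both lymphoid and myeloid cells. It runs from 250 bases before to 50 bases after the gene's start in RefSeq (GRCm38.p6, chr5:91139349-91139648, plus strand). Capitals mark the cyclic AMP response element, the palindrome TGACGTCA, which is the same on both strands.
Areg promoter: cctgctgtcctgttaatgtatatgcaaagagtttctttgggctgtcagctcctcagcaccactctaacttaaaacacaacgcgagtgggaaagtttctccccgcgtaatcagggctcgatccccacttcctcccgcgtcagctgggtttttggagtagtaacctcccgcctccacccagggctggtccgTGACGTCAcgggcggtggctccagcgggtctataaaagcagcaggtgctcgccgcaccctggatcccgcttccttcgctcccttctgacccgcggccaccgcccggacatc
The element lies 61 to 54 bases before the start, and 588 of 32851 promoters of this length hold the same letters (1.79%). The other members are named only.

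Depth per cell was low, with a median of 601 UMIs and 408 genes in shSdc1 cells and of 662 UMIs and 432 genes in shRFP cells, and the 2 libraries held 4281577 and 4116399 UMIs in shSdc1 and shRFP. A total of 17 barcodes among the kept cells occurred in both libraries. Ptprc, the gene of CD45, was read in 31.1% of shSdc1 cells and 27.7% of shRFP cells. Summed markers of melanoma cells stood at 74.0 CPM in shSdc1 and 42.3 CPM in shRFP (CPM, UMIs of a gene per 1000000 UMIs of all genes). Sdc1 itself had 85 UMIs in shSdc1 and 103 UMIs in shRFP, which does not check the hairpin, since the injected tumour cells were sorted out. Of the cells, 249 in shSdc1 and 218 in shRFP had the highest doublet scores and were left out of cell classes but not of totals.

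All 4 ligands had a lower CPM in the shSdc1 library. Areg had 223 UMIs in 134 shSdc1 cells and 362 UMIs in 176 shRFP cells, or 52.1 CPM (45.5 to 59.4) in shSdc1 and 87.9 CPM (79.1 to 97.5) in shRFP, a ratio of 0.592 (0.499 to 0.702). Ereg had 0 UMIs in shSdc1 and 23 UMIs in 16 shRFP cells. With 3 counts put in for the library at 0 it was 7.97-fold lower in shSdc1. The counting interval of the Ereg ratio runs from 0 to 0.167. Nrg1 had 12 UMIs in 11 shSdc1 cells and 90 UMIs in 76 shRFP cells, a ratio of 0.128 (0.0639 to 0.235). This was the lowest ratio among the 3 members read in both libraries, which were chosen with these counts known. Hbegf had 47 UMIs in 39 shSdc1 cells and 84 UMIs in 68 shRFP cells, a ratio of 0.538 (0.368 to 0.778). All 4 were thus lower by at least 1.5-fold, as were 5.79% of the 10801 genes that reached 20 UMIs over the 2 libraries, while 15.6% were higher by as much; since the members were chosen with these counts known, nothing is read from that share.

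**Figure D1:**
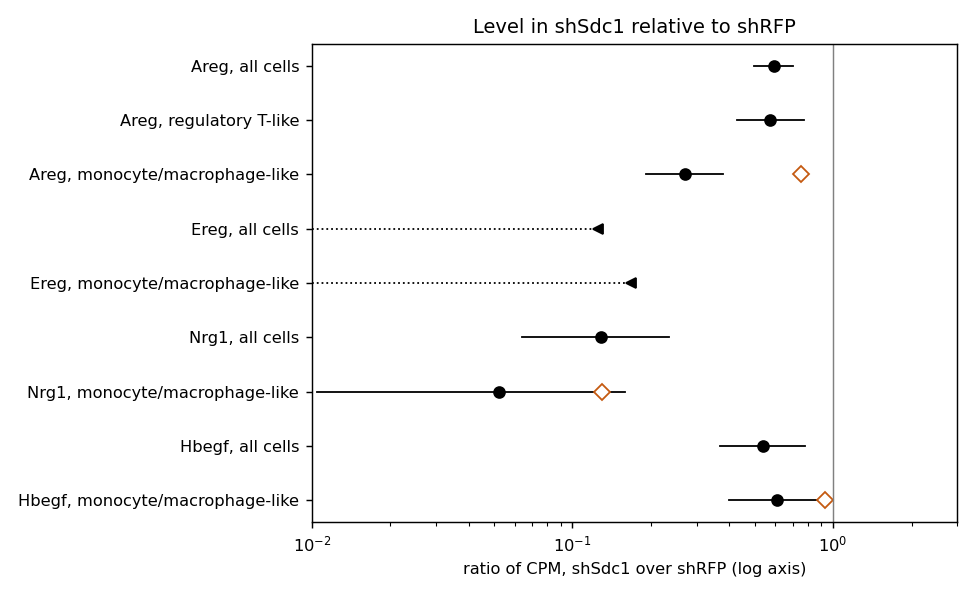
Ratio of CPM in shSdc1 over shRFP on a log axis, for each ligand in all cells and in the classes that held it. Filled circles are ratios of summed UMIs with 95% counting intervals. Arrowheads for Ereg are ratios with 3 counts put in for shSdc1, and open diamonds are the ratios with monocyte/macrophage-like clusters weighted alike in both libraries. Circles and arrowheads sit below 1, and the diamonds of Areg (0.753) and Hbegf (0.932) sit nearer to 1 than their circles.

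The cells fell into 18 clusters. Clusters were built without the EGF family genes and named from marker lists, and the names given here may differ from the study's own. Regulatory T-like cells were 680 of 5327 shSdc1 cells (12.8%) and 333 of 5007 shRFP cells (6.65%). Foxp3, the defining transcription factor, stood at 433 CPM and 479 CPM in shSdc1 and shRFP regulatory T-like cells, and at 0.914 CPM and 0 CPM in shSdc1 and shRFP monocyte/macrophage-like cells. In the same order the 9 regulatory T markers summed to 10051 CPM and 9578 CPM, and to 969 CPM and 1058 CPM. Of these markers Capg differed little between the classes, at 1154 CPM and 1070 CPM, and at 941 CPM and 1025 CPM. Monocyte/macrophage-like cells were 2693 shSdc1 cells (50.6%) and 3176 shRFP cells (63.4%), with Lyz2, the lysozyme gene of myeloid cells, at 9998 CPM and 11413 CPM in those cells and at 42.6 CPM and 113 CPM in regulatory T-like cells. In the same order the 18 monocyte/macrophage markers summed to 38293 CPM and 28531 CPM, and to 734 CPM and 1049 CPM. Of these markers Ccr2 was lower in monocyte/macrophage-like cells, at 194 CPM and 327 CPM, than in regulatory T-like cells, at 397 CPM and 648 CPM. In this clustering no cluster was named for mast cells, basophils or group 2 innate lymphoid cells. Of the 8 genes listed for group 2 innate lymphoid cells, Il1rl1, Gata3 and Rora also stand in the list for repair regulatory T cells, and of the other genes the type 2 cytokine genes Il13 and Il5 had 2 and 0 UMIs in shSdc1 regulatory T-like cells and 2 and 1 in those of shRFP. When cells with at least 500 genes were clustered alone, 70 shSdc1 and 25 shRFP T-like cells led by Ero1l, Cish, Gata3 and Klrg1 took the group 2 innate lymphoid name, with 27 and 8 Areg UMIs and also 10 and 7 Foxp3 UMIs. Without doublet removal 66 shSdc1 and 16 shRFP cells took that name, with 1 and 0 Areg UMIs.

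Areg came from both lineages, and the balance between them differed between the libraries. Regulatory T-like cells held 106 of its 223 UMIs in shSdc1 (47.5%, 40.8 to 54.3) and 86 of 362 in shRFP (23.8%, 19.5 to 28.5). Monocyte/macrophage-like cells held 44 UMIs in shSdc1 (19.7%, 14.7 to 25.6) and 200 UMIs in shRFP (55.2%, 50.0 to 60.4). In this clustering regulatory T-like cells were the larger source in shSdc1 and monocyte/macrophage-like cells in shRFP. Cycling T-like cells held a further 42 UMIs in shSdc1 and 21 UMIs in shRFP. In both libraries nearly all T-like Areg UMIs lay in the cluster led by Tnfrsf4, Ikzf2, Ctla4 and Foxp3, with 157 of 162 in shSdc1 and 123 of 124 in shRFP. The regulatory T share moves with how the class is drawn: when it was made of cells with a Foxp3 UMI and fewer than 5 macrophage marker UMIs, it was 14.3% in shSdc1 and 4.97% in shRFP. At this depth a Foxp3 UMI was read in only 112 of 680 shSdc1 and 58 of 333 shRFP regulatory T-like cells. It was read in 9 of the 66 and 9 of the 47 that were Areg-positive, so a Foxp3 rule leaves most of them out. With classes drawn from marker UMIs in that way, shSdc1 had 32 Areg UMIs in regulatory T-like and 42 in monocyte/macrophage-like cells, while shRFP had 18 and 202. The lower regulatory T counts under this rule thus do not show which class was the larger source. The share in regulatory T-like cells was 36.4% in shSdc1 and 10.5% in shRFP among cells with at least 500 genes, and without doublet removal it was 65.9% and 29.3%.

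**Figure D2:**
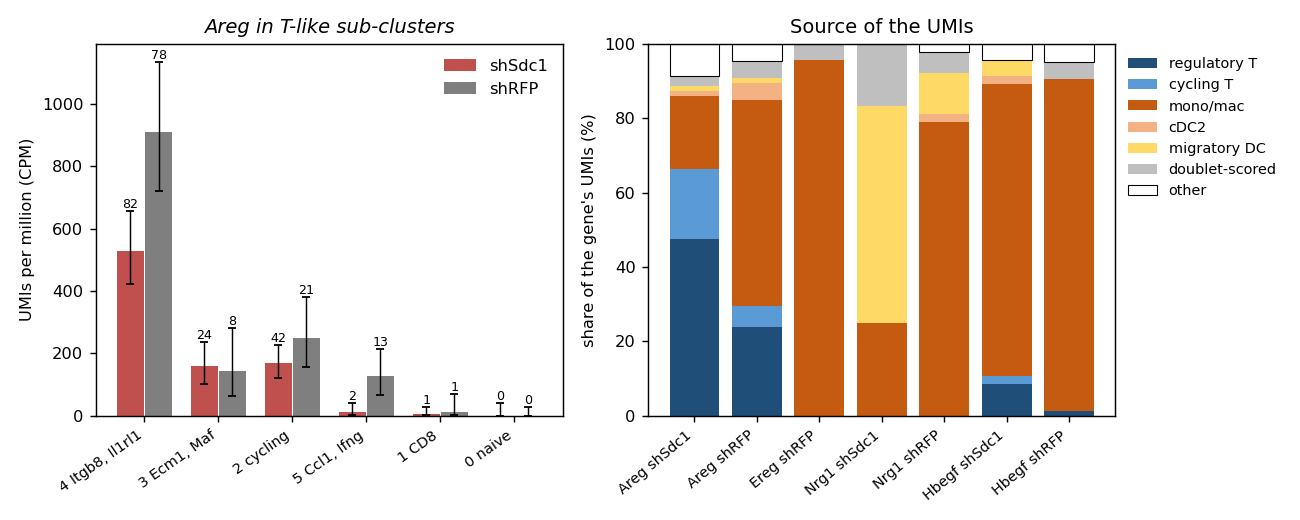
Left, Areg CPM in T-like sub-clusters, labelled by number and leading genes or class, with 95% counting intervals and the number of Areg UMIs above each bar. Right, the share of each ligand's UMIs by cell class in each library; Ereg in shSdc1 is not drawn because it had 0 UMIs. Areg is highest in sub-cluster 4 in both libraries, and the dark blue regulatory T share of Areg is larger in shSdc1 (47.5%) than in shRFP (23.8%).

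On the CPM scale, regulatory T-like cells held 17.3-fold more Areg than monocyte/macrophage-like cells in shSdc1 (12.1 to 25.2) and 8.17-fold more in shRFP (6.27 to 10.6). An Areg UMI was read in 66 of 680 regulatory T-like cells in shSdc1 (9.71%, median of 381.5 UMIs per cell) and in 47 of 333 in shRFP (14.1%, median of 360). It was read in 28 of 2693 monocyte/macrophage-like cells in shSdc1 (1.04%, median of 668) and in 91 of 3176 in shRFP (2.87%, median of 722). In B, plasmacytoid dendritic, conventional type 1 dendritic and naive-like T cells as 1 group it was read in 0 of 519 shSdc1 cells and 0 of 647 shRFP cells, which allows shares of up to 0.578% and 0.464% at medians of 494 and 395 UMIs. Each class in the group had 0 Areg UMIs, while CD8 T-like cells, left out of it, had 1 in each library. NK-like cells, also left out, had 2 in shSdc1 and 0 in shRFP. A class above the level of this group is therefore described and not tested. Regulatory T-like cells of both libraries and monocyte/macrophage-like cells of shRFP stood above that level, also when every cell was thinned to 300 UMIs. Monocyte/macrophage-like cells of shSdc1 could not be told from it at that depth, with a thinned share of 0.357% (0.163 to 0.676) beside 0 of 428 thinned cells of the group, whose interval reaches 0.858%. Of the 28 and 91 Areg-positive monocyte/macrophage-like cells in shSdc1 and shRFP, 0 and 3 had a UMI of the T cell receptor and CD3 genes counted, and none had a Foxp3 UMI.

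Within regulatory T-like cells Areg was concentrated in 1 of 2 sub-clusters. Sub-cluster 4 was led by Itgb8, Il1rl1, Itgae and Foxp3, of which Il1rl1 encodes the interleukin-33 receptor ST2 and Itgb8 an integrin that activates TGF-beta. Its 316 shSdc1 cells held 82 Areg UMIs, 530 CPM (421 to 658), and its 192 shRFP cells held 78 UMIs, 911 CPM (720 to 1136). Sub-cluster 3, led by Ecm1, Maf, Cd4 and Izumo1r, held 24 Areg UMIs in 364 shSdc1 cells, 160 CPM (102 to 238), and 8 in 141 shRFP cells, 142 CPM (61.3 to 280). Sub-cluster 4 thus stood 3.32-fold above sub-cluster 3 in shSdc1 (2.08 to 5.47) and 6.41-fold above it in shRFP (3.1 to 15.4). Areg itself was not used for the clustering.

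Regulatory T-like cells of shSdc1 had a lower Areg CPM but were more numerous, so the number of Areg UMIs from this class was not lower. They had 347 CPM (285 to 420) in shSdc1 and 606 CPM (484 to 748) in shRFP, a ratio of 0.574 (0.428 to 0.772). Within sub-cluster 4 the ratio was 0.582 (0.422 to 0.804). Within sub-cluster 3 it was 1.12 (0.489 to 2.90), an interval that includes 1. In cycling T-like cells it was 0.672 (0.389 to 1.19). Among the 3839 genes that reached 20 UMIs in regulatory T-like cells, 10.7% were lower by at least 1.5-fold and 14.8% higher. The difference in this class depends on how it is drawn: at Leiden resolution 2, which named fewer cells regulatory T-like, the Areg ratio was 0.973. The cells left without a name there included 106 shSdc1 and 76 shRFP cells led by Itgb8, Penk, Il1rl1 and Itgae, with 35 and 48 Areg UMIs, or 657 CPM in shSdc1 and 1455 CPM in shRFP, a ratio of 0.452 (0.284 to 0.713). In these cells 9 regulatory T markers were at least 2-fold above T-like cells of other names. The name was withheld because more of their leading genes stood in the group 2 innate lymphoid list than in the regulatory T list.

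The genes listed for repair regulatory T cells did not show a common difference in this class. Of 12 measured genes, 0 were higher by 1.5-fold, 2 were lower and 10 lay between. The median log2 ratio was -0.15 beside 0.04 for all genes of the class, of which 14.8% were higher and 10.7% lower. Il1rl1 stood at 138 CPM in shSdc1 and 155 CPM in shRFP, a ratio of 0.889 (0.519 to 1.56). Klrg1, an inhibitory receptor of differentiated T cells, stood at 436 CPM and 437 CPM in shSdc1 and shRFP. Rora, a nuclear receptor gene, stood at 311 CPM in shSdc1 and 535 CPM in shRFP, a ratio of 0.582 (0.426 to 0.797). The other lower gene was Il18r1, the interleukin-18 receptor, at 91.8 CPM and 148 CPM in shSdc1 and shRFP, with an interval of the ratio that includes 1 (0.340 to 1.15).

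**Figure D3:**
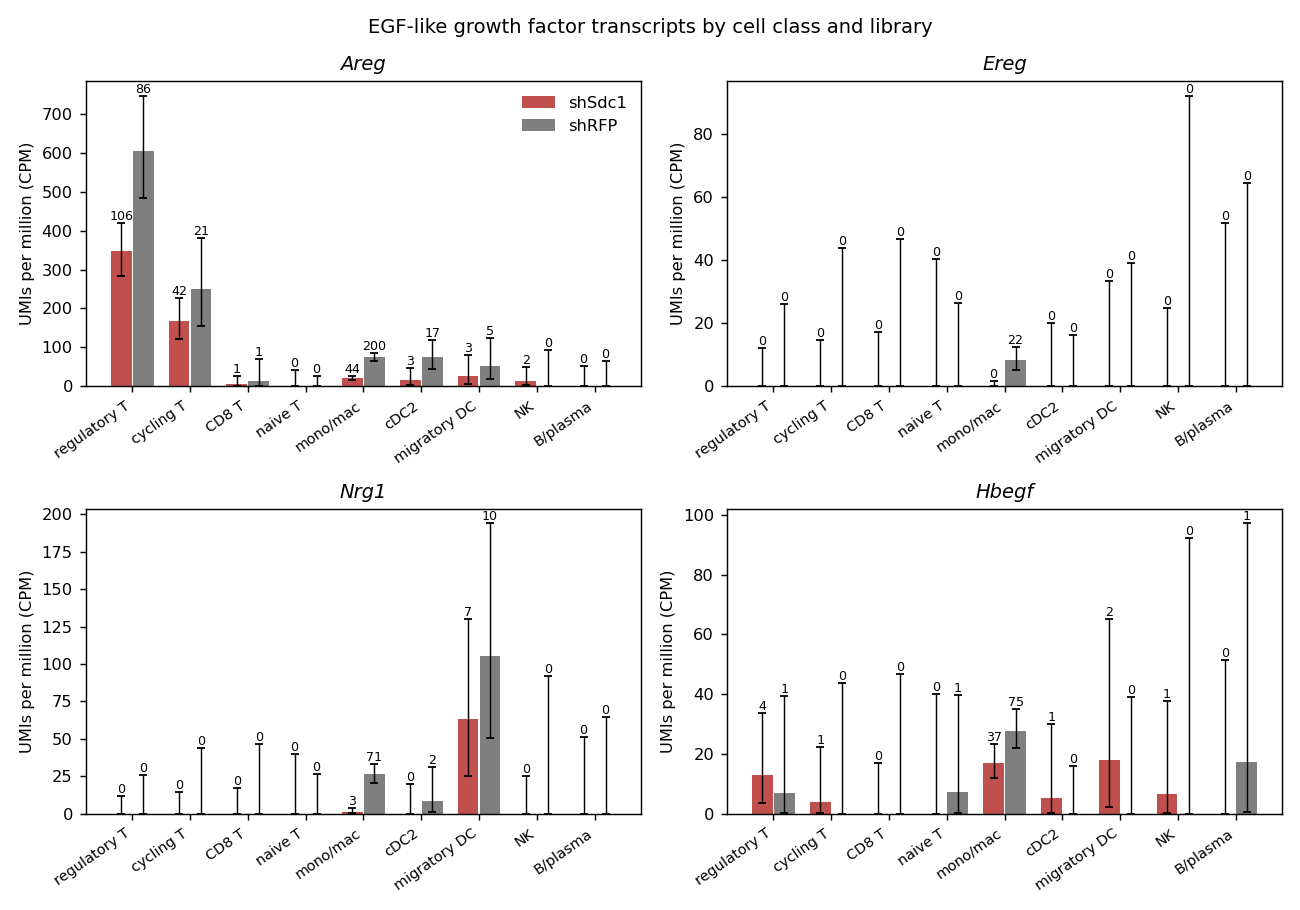
CPM of each ligand in 9 cell classes, shSdc1 left of shRFP, with 95% counting intervals and the number of UMIs of the gene above each bar. Areg is highest in regulatory T-like cells, Ereg is read in shRFP monocyte/macrophage-like cells, Nrg1 in migratory dendritic and monocyte/macrophage-like cells, and Hbegf has most UMIs in monocyte/macrophage-like cells.

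In monocyte/macrophage-like cells Areg stood at 20.1 CPM (14.6 to 27.0) in shSdc1 and 74.2 CPM (64.2 to 85.2) in shRFP, a ratio of 0.271 (0.191 to 0.377). Of the 9409 genes that reached 20 UMIs in this class, 8.34% were lower by at least 1.5-fold and 13.8% higher. The Areg UMIs of the class were held by few clusters: clusters 1, 4 and 14 had 40 of 44 in shSdc1 and 181 of 200 in shRFP. These clusters were led by Arg1, Pf4, Spp1 and Thbs1 (cluster 1), by Arg1, Fn1 and Hspb1 (cluster 4) and by Fn1, Thbs1, Ccl2 and Chil3 (cluster 14). They made up 23.2% of the class in shSdc1 and 49.4% in shRFP. Cluster 8, led by Ccl8, Stab1, Gas6 and C1qa, of which Stab1, Gas6 and C1qa act in the uptake of dying cells, had 0 Areg UMIs in 1228 shSdc1 cells and 0 in 576 shRFP cells, with upper limits of 2.97 CPM and 5.24 CPM from 3 counts. It made up 45.6% of the class in shSdc1 and 18.1% in shRFP. So the cluster with no Areg was the largest in shSdc1, while clusters 1 and 14 were the largest in shRFP.

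The Areg ratio varied between single clusters. Cluster 1 had 14 UMIs in 439 shSdc1 cells, 47.0 CPM (25.7 to 78.8), and 81 UMIs in 649 shRFP cells, 153 CPM (122 to 190), a ratio of 0.307 (0.161 to 0.545). Cluster 14 had 20 UMIs in 96 shSdc1 cells, 237 CPM (145 to 366), and 79 UMIs in 617 shRFP cells, 155 CPM (123 to 194), a ratio of 1.52 (0.883 to 2.51), an interval that includes 1. Cluster 4 had 6 UMIs in shSdc1 and 21 in shRFP, 91.5 CPM and 95.7 CPM. Had the shRFP levels of each cluster been combined in the shSdc1 mix of clusters, Areg would have stood at 37.9 CPM, 0.511 of the shRFP level. With the clusters weighted alike in both libraries it stood at 43.6 CPM in shSdc1 and 57.9 CPM in shRFP, a ratio of 0.753. The part of the cluster mix in the difference was not tested.

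Among conventional type 2 dendritic-like cells, Areg had 3 UMIs in 171 shSdc1 cells and 17 in 232 shRFP cells. Migratory dendritic-like cells had 3 and 5 Areg UMIs in shSdc1 and shRFP. The CD8 T-like cells had 1 in each library. In the sub-cluster of T-like cells led by Ccl1, Nrgn and Ifng there were 2 UMIs in shSdc1 and 13 in shRFP, and 12 of the 13 lay in 1 cell.

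**Figure D4:**
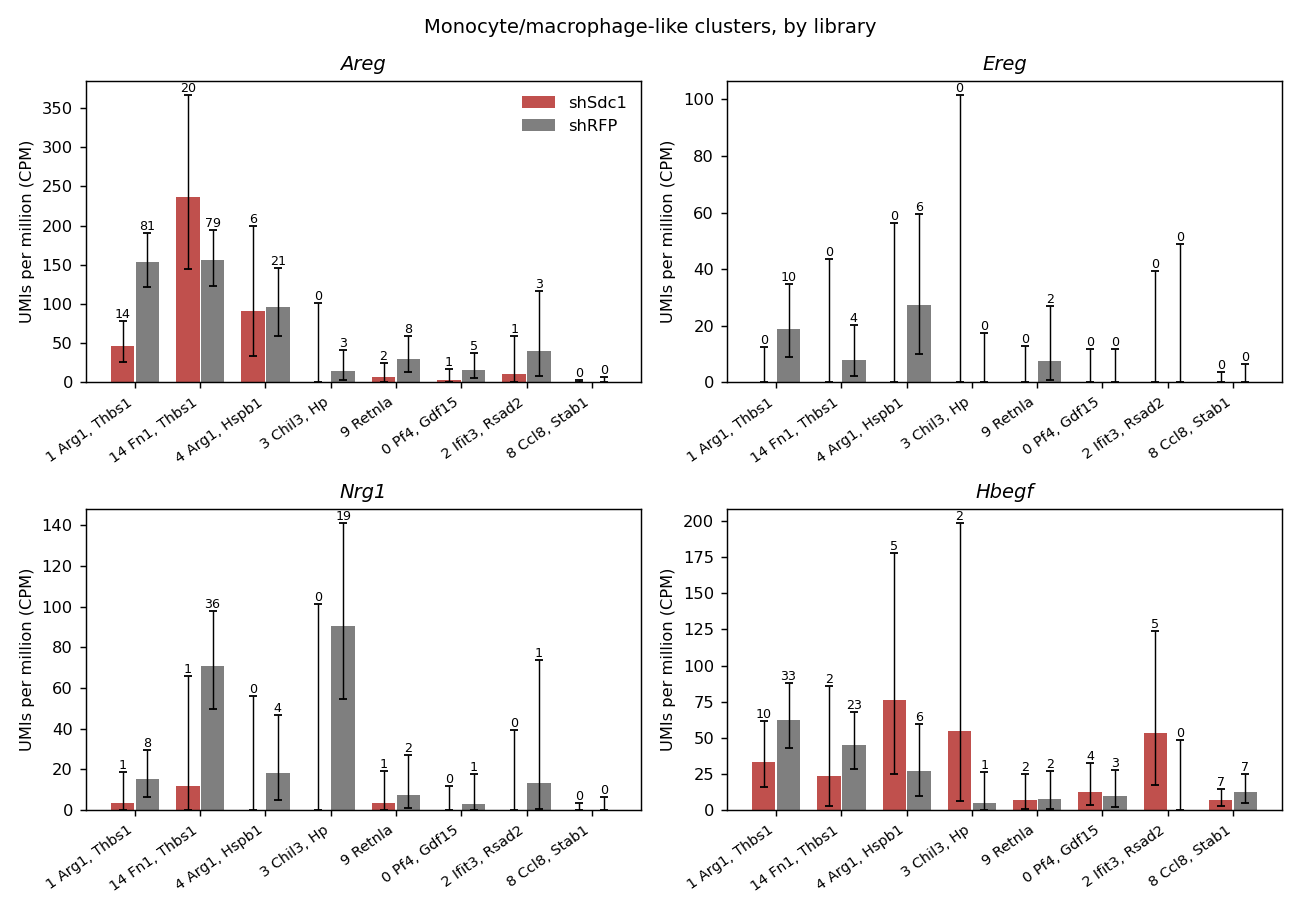
CPM of each ligand in the 8 monocyte/macrophage-like clusters, labelled by number and leading genes, shSdc1 left of shRFP, with 95% counting intervals and the number of UMIs above each bar. Areg, Ereg and Nrg1 have 0 UMIs in the Ccl8, Stab1 cluster in both libraries, Nrg1 is highest in the Chil3, Hp and Fn1, Thbs1 clusters of shRFP, and cluster 14 is the 1 cluster with at least 20 Areg UMIs where the shSdc1 bar is the taller.

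Ereg was read in the shRFP library alone, and most of its UMIs lay in monocyte/macrophage-like cells. These held 22 of its 23 UMIs, in 15 of 3176 cells, at 8.16 CPM (5.11 to 12.4), and the remaining UMI lay in a barcode with a high doublet score. When cells with at least 500 genes were clustered alone, 14 of the 23 UMIs (60.9%) lay in clusters with that name. In that clustering 72 shSdc1 and 311 shRFP cells led by S100a9, S100a8, Vcan and F10 took the neutrophil name. Fn1 and Chil3, leading genes of cluster 14, were also among their leading genes. The main clustering had 26 and 34 neutrophil-like cells in shSdc1 and shRFP, so the 2 shares come from unlike classes. In shSdc1, 0 UMIs were read in 2693 monocyte/macrophage-like cells, which is 5.95-fold lower when 3 counts are put in for that library. The counting interval of this ratio runs from 0 to 0.225. Cluster 1 had 10 of the UMIs, cluster 4 had 6, in 2 cells, cluster 14 had 4 and cluster 9, led by Retnla, had 2. The shRFP levels combined in the shSdc1 mix of clusters would have given 4.68 CPM. When every cell was thinned to 300 UMIs, 4 Ereg UMIs were left in shRFP. The ratio with 3 counts put in rose to 0.719, so at that depth a difference was not detectable.

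Ereg-positive cells often carried another of these ligands. In shRFP monocyte/macrophage-like cells an Areg UMI was also read in 8 of the 15 Ereg-positive cells, and 91 of all 3176 cells had 1. An Hbegf UMI was read in 4 of the 15. The Ereg-positive cells had a median of 1381 UMIs and the others of 721, and a deeper cell shows more genes. In the class as a whole, 4 of 2693 shSdc1 cells and 16 of 3176 shRFP cells had at least 2 of the 4 ligands.

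Most Nrg1 UMIs lay in monocyte/macrophage-like and migratory dendritic-like cells, and none in regulatory T-like cells of either library. Barcodes with high doublet scores held 2 of its 12 UMIs in shSdc1 and 5 of 90 in shRFP, and in shRFP 2 more lay in conventional type 2 dendritic-like cells, 1 in neutrophil-like and 1 in unnamed T-like cells. In monocyte/macrophage-like cells it had 3 UMIs in shSdc1, 1.37 CPM (0.283 to 4.0), and 71 UMIs in 59 cells in shRFP, 26.3 CPM (20.6 to 33.2), a ratio of 0.0521 (0.0105 to 0.158). The intervals of the 2 levels do not overlap, but they cover counting error only, and Nrg1 was chosen with these counts known. Cluster 3, led by the monocyte genes Chil3, Hp and Ifitm6, had 0 UMIs in 72 shSdc1 cells and 19 in 383 shRFP cells, 90.3 CPM (54.4 to 141). Cluster 14 had 1 UMI in 96 shSdc1 cells and 36 in 617 shRFP cells, 11.8 CPM (0.30 to 66.0) against 70.8 CPM (49.6 to 98.1). Clusters 3 and 14 thus held 55 of the 71 UMIs in shRFP (77.5%), and these clusters were 6.24% of the class in shSdc1 and 31.5% in shRFP. Cluster 8 had 0 Nrg1 UMIs in both libraries. Monocyte/macrophage-like cells held 78.9% of the Nrg1 UMIs of shRFP, and 39.2% when cells with at least 500 genes were clustered alone. That second class left out the 72 shSdc1 and 311 shRFP cells named neutrophil there, with Fn1 and Chil3 among their leading genes. The share of Nrg1 UMIs in those cells is not given here.

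For Nrg1 the levels within clusters rest on 3 shSdc1 UMIs in the whole class. The part of the cluster mix in the Nrg1 difference was not tested. The shRFP levels combined in the shSdc1 mix would have given 8.85 CPM, 0.336 of the shRFP level. With clusters weighted alike the ratio was 0.130. Within cluster 14 the ratio was 0.167 (0.00412 to 0.993), and in cluster 3 the few shSdc1 cells gave an interval from 0 to 1.24. Migratory dendritic-like cells, led by Fscn1, Ccl22 and Ccr7, had Nrg1 at 63.0 CPM (25.3 to 130) in shSdc1, from 7 UMIs in 153 cells, and at 106 CPM (50.6 to 194) in shRFP, from 10 UMIs in 137 cells. That ratio of 0.597 (0.193 to 1.74) does not differ from 1 beyond counting error. These cells held 58.3% of all Nrg1 UMIs in shSdc1 and 11.1% in shRFP.

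Hbegf was read in every monocyte/macrophage-like cluster of shSdc1 and in all but cluster 2 of shRFP. Monocyte/macrophage-like cells held 37 of its 47 UMIs in shSdc1 (78.7%) and 75 of 84 in shRFP (89.3%), at 16.9 CPM (11.9 to 23.3) in shSdc1 and 27.8 CPM (21.9 to 34.9) in shRFP. The ratio was 0.608 (0.398 to 0.913). It was read in cluster 8, with 7 UMIs in each library, where the other members were at 0. Cluster 1 had 10 UMIs in shSdc1 and 33 in shRFP, 33.6 CPM (16.1 to 61.7) against 62.4 CPM (43.0 to 87.6). Clusters 2, 3 and 4 had 5, 2 and 5 UMIs in shSdc1, against 0, 1 and 6 in shRFP. An Hbegf UMI was read in 4 of 680 regulatory T-like cells in shSdc1 and 1 of 333 in shRFP (0.588% and 0.30%). In the B, dendritic and naive-like group named above it was read in 1 of 519 shSdc1 and 2 of 647 shRFP cells (0.193% and 0.309%). With so few reads the regulatory T-like share could not be told from that of the group. With clusters weighted alike the Hbegf ratio in monocyte/macrophage-like cells was 0.932, and after thinning to 300 UMIs it was 0.963. When cells with at least 500 genes were clustered alone it was 0.302, in a class without the cells named neutrophil there.

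Shares of cells with a UMI were also compared at 1 depth. At 300 UMIs per cell, with 547 shSdc1 and 403 shRFP cells too shallow and left out, an Areg UMI was read in 8.43% of shSdc1 regulatory T-like cells (6.19 to 11.2) and 11% of those of shRFP (7.32 to 15.7), against 9.71% and 14.1% unthinned, and the thinned intervals overlap. In monocyte/macrophage-like cells Areg was read in 0.357% of shSdc1 and 1.63% of shRFP cells, and Nrg1 in 0.0397% and 0.878%. For Hbegf the thinned shares were 0.555% of shSdc1 cells and 0.618% of shRFP cells, with overlapping intervals (0.304 to 0.930 and 0.372 to 0.963).

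The other ligands and the receptors of the family were nearly unread in these leukocytes. Of 7 other ligand genes, 0 reached 20 UMIs over the 2 libraries. Egf had 6 UMIs in shSdc1 and 3 in shRFP, Nrg2 8 and 3, Nrg4 3 and 3, and Tgfa 0 and 2, while Btc, Epgn and Nrg3 were listed at 0. These genes are named as members of the family after their values were seen, although they lie under that count. Egfr, Erbb2 and Erbb4 were listed at 0 UMIs in both libraries, and Erbb3, the receptor partner that binds neuregulins, had 10 UMIs in shSdc1 and 9 in shRFP.

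Of 11 listed sheddase and iRhom genes, which act in the release of the ligands, 8 reached 20 UMIs over the 2 libraries. Of these 8 measured sheddase and iRhom genes, 1 was higher in shSdc1 by 1.5-fold, 0 were lower and 7 lay between. The median log2 ratio was 0.02 beside 0.14 for all genes, of which 15.6% were higher and 5.79% lower. Adam17, the main sheddase of these ligands, stood at 106 CPM in shSdc1 and 104 CPM in shRFP, a ratio of 1.02 (0.896 to 1.17). Rhbdf2, which encodes iRhom2, the trafficking factor of ADAM17 in myeloid cells, stood at 36.7 CPM and 41.5 CPM in shSdc1 and shRFP. The higher gene was Adam19, at 42.0 CPM in shSdc1 and 15.1 CPM in shRFP, a ratio of 2.79 (2.08 to 3.79). In monocyte/macrophage-like cells 13.8% of all genes were higher and 8.34% lower. Of the 8 sheddase and iRhom genes measured there, 2 were higher, 0 lower and 6 between, with a median log2 ratio of 0.12 beside 0.07. The 2 higher genes were Adam19 and Adam15, a gene of the same protease family at 157 CPM in shSdc1 and 94.9 CPM in shRFP, a ratio of 1.65 (1.40 to 1.95).

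Of 10 measured feedback inhibitors of ErbB signalling, 1 was higher in shSdc1 by 1.5-fold, 1 was lower and 8 lay between, with a median log2 ratio of 0.03 beside 0.14; of all genes, 15.6% were higher and 5.79% lower. The lower gene was Errfi1, whose product MIG6 binds and inhibits the EGF receptor kinase, at 91.8 CPM in shSdc1 and 181 CPM in shRFP, a ratio of 0.506 (0.447 to 0.573). In monocyte/macrophage-like cells 13.8% of all genes were higher and 8.34% lower. Of 9 inhibitors measured there, 0 were higher, 2 lower and 7 between, with a median log2 ratio of -0.02 beside 0.07. The lower ones were Errfi1 and Dusp5: Errfi1 stood at 133 CPM in shSdc1 and 240 CPM in shRFP, and Dusp5, an ERK phosphatase gene, at 71.7 CPM and 135 CPM. The higher gene was Lrig2, at 10.0 CPM in shSdc1 and 5.83 CPM in shRFP, from 43 and 24 UMIs.

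Lists of myeloid genes, chosen with earlier results of these data known, had lower and higher members in the same monocyte/macrophage-like cells. Of 17 measured inflammatory genes, 12 were lower in shSdc1 by 1.5-fold, 1 was higher and 4 lay between, with a median log2 ratio of -1.17 beside 0.07 for all genes of the class. Il1b, the gene of interleukin-1 beta, stood at 748 CPM in shSdc1 and 2384 CPM in shRFP, a ratio of 0.314 (0.297 to 0.331). Thbs1, the gene of thrombospondin 1, stood at 825 CPM and 2159 CPM in shSdc1 and shRFP. Of 14 measured hypoxia genes, 4 were lower, 0 were higher and 10 lay between, with a median log2 ratio of -0.39. Of 15 listed genes of complement-rich and lipid-laden macrophages, 9 were higher, among them C1qa with a ratio of 1.99, 1 was lower and 5 lay between, with a median log2 ratio of 0.79. Of all genes of the class 8.34% were lower and 13.8% higher. An Il1b UMI was read in 19 of 28 Areg-positive cells of the class in shSdc1 and in 72 of 91 in shRFP, against 17.0% of the Areg-negative cells in shSdc1 and 41.6% in shRFP. The Areg-positive cells were also deeper, with medians of 1123.5 UMIs in shSdc1 and 1034 in shRFP, against 665 and 716 in the Areg-negative cells.

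Across 34 sums of clusters by library, the genes whose log2(CPM + 10) was most like that of a ligand were listed from 7445 candidates, as a description of sums that share libraries and depth. For Areg they were Hif1a, with Pearson's r of 0.70, Rab11fip1, Odc1, Got1 and S100a10. For Ereg they were Pgf, with r of 0.58, Ppp1r3b, Serpinb2, Gpat3 and Ppbp. These Ereg values rest on few sums: only clusters 1, 4, 9 and 14 of shRFP were above 0, with 10, 6, 2 and 4 UMIs. For Nrg1 they were Cd80, with r of 0.76, Arf4, Arg2, Slc7a11 and Gadd45b. For Hbegf they were Thbs1, with r of 0.75, Neu1, Arg1, Nlrp3 and F13a1.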

How the data were processed

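Live CD45+ cells of 2 tumour pools were profiled with 10x Genomics 3' v3.1 chemistry. The authors deposited raw UMI counts per gene and barcode, and Cell Ranger 6.1.1 made them, per the file headers, on mm10 per the submitters' processing notes. The members and gene lists were chosen with earlier results of these data known.

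Doublets were taken as the highest Scrublet scores at 0.8% per 1000 barcodes, since the automatic threshold marked 0 barcodes in shSdc1 and 1 in shRFP. Cells were clustered with scanpy 1.11.5 (2000 variable genes without the EGF family, 30 components, 15 neighbours, Leiden resolution 1) and clusters named from marker lists. UMIs were summed per library and class. Levels carry exact Poisson intervals, shares exact Clopper-Pearson intervals, and ratios exact conditional binomial intervals (scipy 1.17.1). The ratio intervals were run on simulated Poisson totals. In the data single cells held up to 12 Areg UMIs, which the simulation did not copy, so it does not show that the intervals hold here. All intervals cover counting error only. With 1 library per group no test was run. A level at 0 was replaced by 3 counts per library for fold values, which takes the count of the other library as exact.

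Named genes were the members, listed genes that reached 20 UMIs over the 2 libraries, and per member the 5 genes most like it among those with at least 100 UMIs, over sums of at least 30 cells. In the lists a ratio of 1.5 either way counted as higher or lower. Alternatives changed the cell filter, doublet removal, scaling, thinning, clustering and the cell of most UMIs. Total depth was 4281577 UMIs in shSdc1 and 4116399 UMIs in shRFP.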

Additional observations from a re-analysis of the deposited data

Results flagged for a closer look

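The Areg ratio of shSdc1 over shRFP was 1.52 in cluster 14 of the monocyte/macrophage-like cells, led by Fn1, Thbs1 and Chil3, whereas it was 0.307 in cluster 1, led by Arg1 and Thbs1, 0.553 in the cluster led by Tnfrsf4, Ikzf2 and Foxp3, 0.582 in its Il1rl1-led regulatory T-like part, and 0.219 in conventional type 2 dendritic-like cells. These values lie on opposite sides of 1, and the difference between clusters was not tested. Cluster 14 held 96 shSdc1 cells and 617 shRFP cells, and its interval (0.883 to 2.51) includes 1, so an opposite direction is not shown.

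Barcodes left out by the filter also held members. The 561 barcodes left out of shRFP had 5 Areg UMIs, 35.8 CPM (11.6 to 83.6), and 4 Nrg1 UMIs, 28.7 CPM (7.81 to 73.4). The 326 barcodes left out of shSdc1 had 3 Areg UMIs, 33.7 CPM (6.94 to 98.3), and 0 Nrg1 UMIs.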

How the results depend on the processing

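No paired analysis was possible because each group was 1 library. None of the ratios changed direction under the alternatives run. Some alternatives, such as the scalings, could shift a ratio only a little. Of 69 values of the 8 main ratios, whose genes were chosen with earlier results known, 63 stayed within the counting interval of the value reported. The other 6 were Areg in all cells with at least 500 genes (0.469), Ereg in all cells thinned to 300 UMIs (a limit of 0.719, from 4 shRFP UMIs), Hbegf in monocyte/macrophage-like cells thinned (0.963), with at least 500 genes (0.302) and with clusters weighted alike (0.932), and Areg in regulatory T-like cells at Leiden resolution 2 (0.973). The cause was not tested. Of 39 other values, 17 left their interval, among them the Areg ratio in monocyte/macrophage-like cells with clusters weighted alike (0.753) and all 8 alternative regulatory T-like shares of Areg (14.3% to 65.9% in shSdc1, 4.97% to 29.3% in shRFP). TMM scaling shifted the log2 ratios of all cells by -0.15 and median-of-ratios scaling by -0.14. Thinning and equal weighting gave no value for Ereg in monocyte/macrophage-like cells, where too few UMIs were left or shSdc1 was at 0. Depth limits Ereg, with 23 UMIs, and Nrg1 in shSdc1, with 12 UMIs.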
